A study of Mus musculus with 2 samples.

Results

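Complement genes of microglia were followed in H3K27ac HiChIP, an assay that reads out which stretches of DNA touch each other where chromatin carries the acetyl mark of active promoters and enhancers on histone H3 (H3K27ac). The set holds 9 genes of the 21883 protein-coding genes of the mouse annotation: C1qa, C1qb, C1qc, C3, C3ar1, C5ar1, C5ar2, Itgam and Itgax. A called interaction belonged to a gene when 1 of its 10 kb bins (its anchors) overlapped the mm10 span of the gene with 1 kb on each side. In all, 37 of 19061 interactions in the sham list and 58 of 42905 in the day 6 list belonged to the 9 genes, and every gene had at least 1 interaction in each list.

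Both libraries came from microglia of wild-type C57BL/6J mice, males of 8 to 24 weeks, sorted by flow cytometry from brain as cells with intermediate CD45 and intermediate CD11b. The day 6 library was made from mice 6 days after their middle cerebral artery was blocked for 60 minutes (MCAO), a model of ischemic stroke, and the sham library from mice that had sham surgery. Each used 200000 to 300000 cells of the sham-operated or ischemic hemisphere. There was 1 library per condition, and the sources used here do not give the number of animals behind each. No test between the conditions was therefore possible, and no difference below has a replicate check.

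Complement is a cascade of plasma proteins that tags targets for removal. C1q, built from the chains encoded by C1qa, C1qb and C1qc, binds a target and starts the classical pathway, C3 is the central component on which the pathways meet, and the fragments cleaved from C3 and C5 act on receptors encoded by C3ar1, C5ar1 and C5ar2. Itgam and Itgax encode CD11b and CD11c, the alpha chains of complement receptors 3 and 4, which bind fragments of C3 left on a surface. In brain, microglia are a main source of C1q and use complement receptor 3 in the removal of synapses and debris.

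The day 6 list held more interactions than the sham list in general, with 1074041 contacts (read pairs that join the bins of called interactions) against 501608, a ratio of 2.14. Median contacts per interaction were 22 in sham and 20 at day 6. Read coverage went the other way, with a median per anchor of 1152 in sham and 739 at day 6. Modelled contacts, the total behind the caller's expected counts, were 3.63e+06 in sham and 2.26e+06 at day 6. The ratio of 2.14 is one of called contacts. Total read depth was not measured here, and the coverage medians are over different anchors (18885 in sham and 32048 at day 6). The microglia label was checked against markers. All 10 listed microglia markers, P2ry12, Tmem119, Sall1 and Cx3cr1 among them, had interactions in both lists, with 2531 contacts in sham and 2761 at day 6. As called contacts as a whole were 2.14 times those of sham, the share of these markers was lower at day 6. Of 7 monocyte and border macrophage markers 3 had interactions in sham and 5 at day 6 (320 and 470 contacts, none in either list for Ly6c2 and Cd163), and of 6 neutrophil markers 0 and 1 (0 and 91 contacts, all on Cxcr2, with none for S100a8, S100a9 and Ly6g). Monocytes and neutrophils also use C3ar1, C5ar1, Itgam and Itgax. Lymphocyte markers had 149 contacts in sham and 359 at day 6, with none on Cd3e. Endothelial markers had 101 and 405, with none on Cldn5, astrocyte markers 181 and 375, with none on Aqp4, oligodendrocyte markers 189 and 484, and neuronal markers 132 and 71, with none on Syt1 and Snap25. The part of these cells in the values below was not tested. Fewer cells with a contact and fewer contacts per cell cannot be told apart in such pooled libraries.

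The contacts of each gene were summed over its interactions, and day 6 was set against sham as a log2 ratio of shares of all called contacts. A prior of 5 contacts per gene, in proportion to library totals, was added first. A gene was counted as having more contacts at a log2 ratio of at least 1 and fewer at -1 or less, where it had at least 3 interactions in 1 list. Under this rule of size, 4 of the 9 genes had fewer contacts at day 6 (C1qb, C3, C5ar1 and C5ar2), where 10.3% of the 9635 genes with at least 3 interactions did, and 0 of 9 had more, where 39.1% did. C1qb is 1 of 3 neighbouring genes and C5ar1 and C5ar2 share interactions, so the 4 genes come from 3 of the 5 loci. With each interaction counted once per locus, the log2 ratio was -1.67 for C3 and -1.20 for C5ar1 with C5ar2. It did not reach -1 for the C1q genes (-0.84), C3ar1 (-0.072) or Itgam with Itgax (0.083). Contacts over the caller's expected count were higher at day 6 for C3 (3.63 in sham, 3.78 at day 6), C5ar1 (2.63, 3.65) and C5ar2 (2.16, 3.17). They were lower for C1qb (5.66, 4.36). These ratios cover called interactions only. The median log2 ratio was -0.84 over the 9 genes and 0.55 over all genes tested. All 9 had interactions in both lists, whereas the 9635 genes include genes called in 1 list alone. Among the 7629 genes in both lists with at least 3 interactions in 1, 12.7% had fewer and 23.4% more. Their median was 0.17. The microglia markers, whose share of called contacts was also lower at day 6, were not put to the rule as a set. Whether the low ratios are particular to complement genes among genes of microglia was therefore not tested. The count of 4 held with lists of equal length (day 6 limited to its 19061 interactions of smallest q-value), where 17.9% of all genes had fewer and 30.1% more. It was 1 with scaling by the contacts of interactions shared by both lists (1.93% of all genes) and 0 with scaling by modelled contacts, the total behind the caller's expected counts (0.82%), and 2 and 3 of the 9 genes then had more (66.3% and 84% of all genes). With no flank the counts were 4 fewer and 0 more (10.2% and 39.6% of all genes), and with a flank of 5 kb 3 and 0 (10% and 37.9%). With gene ends only they were 3 and 1 of 8 (11.4% and 40.7%), and with a q-value limit of 1e-06 they were 2 and 2 of 5 (14.1% and 50%). At that limit C5ar1 (-1.55) and C1qc (-1.32) had fewer, and C3ar1 (1.35) and Itgam (1.20) more. C1qb, C3 and C5ar2 then had under 3 interactions in each list and were outside the rule. With a prior of 1 contact they were 4 and 0 (10.8% and 40.4%), as with a prior of 20 contacts (8.67% and 34.6%).

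**Figure D1:**
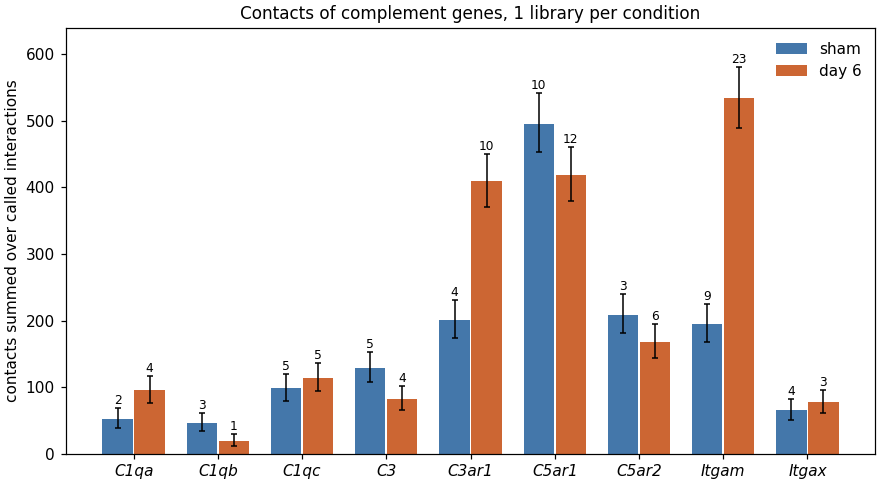
Contacts summed over the called interactions of each of the 9 complement genes (bars, from 0) in the sham and day 6 libraries, with exact 95% Poisson intervals for counting error and the number of interactions above each bar. Itgam and C3ar1 had more contacts at day 6 (534 against 195 and 409 against 201), C3, C1qb, C5ar1 and C5ar2 had fewer (82 against 129, 19 against 46, 419 against 496 and 168 against 209), and neighbouring genes share interactions.

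**Figure D2:**
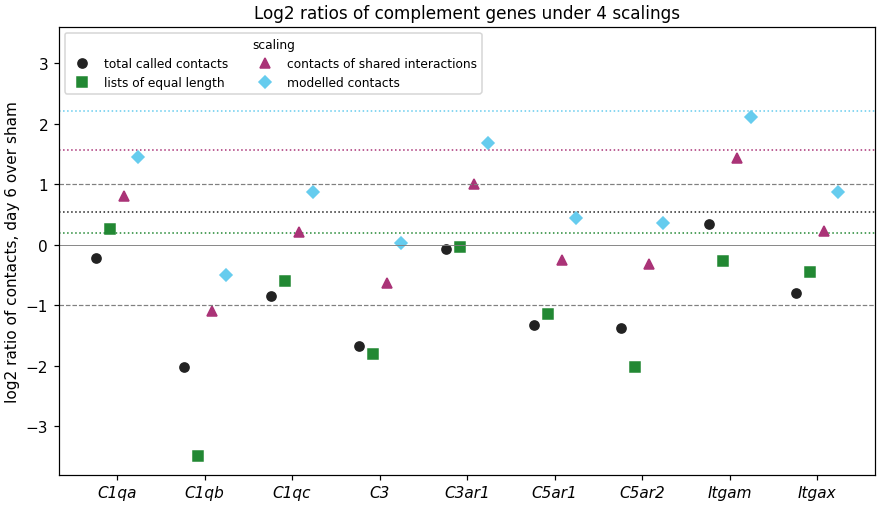
Log2 ratio of contacts, day 6 over sham, for each complement gene under 4 scalings (symbols); dotted lines in the same colours are the medians of all genes tested (0.55 by total called contacts, 0.19 with equal length, 1.56 by shared interactions, 2.20 by modelled contacts), and grey dashed lines mark the rule of size at -1 and 1. With lists of equal length C1qa lies above the all-gene median and the other 8 genes below it, and in each of the other 3 scalings all 9 genes lie below it. The median of genes with interactions in both lists, 0.17 by total called contacts, is not drawn, and Itgam (0.35) lies above it.

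The 3 C1q genes lie side by side on chromosome 4. C1qa spans chr4:136895916-136898844, C1qb chr4:136880126-136886200 and C1qc chr4:136889801-136892936 (mm10). C1qb and part of C1qc fall in the bin chr4:136880001-136890000, and C1qa and the rest of C1qc in the next bin, so that the values of C1qc are the sum of those of its neighbours. C1qa had 2 interactions with 52 contacts (95% Poisson interval 38.8 to 68.2) in sham and 4 with 95 (76.9 to 116) at day 6, a log2 ratio of -0.21 (-0.73 to 0.29, an exact binomial interval taken without the prior, as for all ratios below). C1qb had 3 interactions with 46 contacts (33.7 to 61.4) in sham and 1 with 19 (11.4 to 29.7) at day 6, log2 -2.03 (-3.23 to -1.57). C1qc had 5 interactions in each list, with 98 and 114 contacts, log2 -0.84 (-1.28 to -0.48). The bins thus went in different directions in plain counts: contacts of the C1qa bin were higher at day 6 and those of the C1qb bin lower. The call of C1qb did not hold with a flank of 5 kb, which takes in both bins (log2 -0.84), nor with scaling by modelled contacts (-0.51), and with lists of equal length the gene had no day 6 interaction.

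Both C1q bins reached nearly the same distal place in both lists, beside Cdc42, a small GTPase of the actin cytoskeleton. The bin chr4:137360001-137370000 begins 2.24 kb beyond the higher coordinate of the Cdc42 span and 480 kb from the C1qb bin, and holds no coding gene. It had 20 contacts with the C1qb bin in sham (6.49 times the count that the caller expected for that distance and coverage) and 19 at day 6 (4.36 times). With the C1qa bin it had 25 contacts in sham (7.51 times expected), and at day 6 the C1qa bin instead joined the next bin, chr4:137370001-137380000, with 18 contacts (3.93 times). That next bin had 14 contacts with the C1qb bin in sham. A second distal bin without a coding gene, chr4:137070001-137080000, 180 kb from the C1qa bin and 21.2 kb from Zbtb40, was joined in both lists, with 27 contacts in sham and 35 at day 6. Interactions called in sham alone joined the C1qb bin to Hspg2, the gene of the matrix protein perlecan, with 12 contacts at 580 kb. Those called at day 6 alone joined the C1qa bin to a bin 3.82 kb from Id3, an inhibitor of helix-loop-helix factors, with 18 contacts at 760 kb, and to Camk2n1 with 24 contacts at 1560 kb. Of the C1q interactions 5 of 5 in sham and 4 of 5 at day 6 ran to higher coordinates.

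The promoters of C1qb and C1qc lie in these bins, 1 in each, and their RefSeq sequences (GRCm38.p6, the same assembly as mm10) are shown because the neighbouring bins differed in their contacts. Each is the 250 bases before the start of transcription, 5′ to 3′ on the gene's minus strand, at chr4:136886201-136886450 for C1qb and chr4:136892915-136893164 for C1qc. Capitals mark matches to 5 motifs searched on both strands: GAGGAA, the core of sites of the myeloid factor PU.1, TGANTCA (AP-1), TTGCNNAA (C/EBP), an IRF motif (GAAA, any 2 bases, GAAA) and an NF-kB motif (GGGA, any base, TTTCC).
C1qb: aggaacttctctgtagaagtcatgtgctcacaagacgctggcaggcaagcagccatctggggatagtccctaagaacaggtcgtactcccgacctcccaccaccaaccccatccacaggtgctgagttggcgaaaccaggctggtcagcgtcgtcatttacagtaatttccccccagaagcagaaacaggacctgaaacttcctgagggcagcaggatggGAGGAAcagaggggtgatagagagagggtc
C1qc: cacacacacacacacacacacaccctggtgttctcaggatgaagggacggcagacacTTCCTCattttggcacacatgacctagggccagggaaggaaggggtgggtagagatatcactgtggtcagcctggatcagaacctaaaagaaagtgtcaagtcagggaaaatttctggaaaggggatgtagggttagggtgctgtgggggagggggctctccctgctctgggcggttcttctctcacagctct
Each had 1 match, to the PU.1 core, which begins at position -30 from the start in C1qb and, on the other strand, at -193 in C1qc. This 6-base motif is common: 27.4% of 21262 promoter windows of coding genes (250 bases before to 50 after the start) held it, whereas AP-1 was in 6.99%, C/EBP in 10.2%, IRF in 3.35% and NF-kB in 0.423%. A match describes letters and does not show a bound site. C1qa has no entry in the promoter table.

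C3 spans chr17:57203967-57228136. It had 5 interactions with 129 contacts (108 to 153) in sham and 4 with 82 (65.2 to 102) at day 6, log2 -1.67 (-2.17 to -1.34), and -1.80 with lists of equal length but -0.63 with scaling by shared interactions and 0.029 by modelled contacts. Only 1 interaction was common to both lists. It joined the bin of the C3 start to chr17:57330001-57340000 within 1 kb of Vav1, an exchange factor of blood cells, with 30 contacts in sham and 21 at day 6. In sham all 5 interactions ran to one side, to bins of Vav1 and Adgre1, the gene of the macrophage protein F4/80, and a bin between them, 110 to 140 kb away. At day 6 2 of 4 ran to Vav1 and 2 to the other side, of which 1 reached the bin of Dennd1c and Tubb4a with 23 contacts at 150 kb and the other a bin 10.2 kb from Cd70 with 18 contacts at 60 kb. In the bin of the C3 start alone there were 2 interactions with 53 contacts in sham and 3 with 62 at day 6, log2 -0.81, so that the call of C3 rests on the bin inside the gene, which had 3 sham interactions and 1 at day 6. With gene ends only the log2 ratio was also -0.81. The promoter of C3 (chr17:57228137-57228386, minus strand, 250 bases before the start) is shown since the contacts of its bin and of the gene body differed, and it held 1 C/EBP match, at position -45.
C3: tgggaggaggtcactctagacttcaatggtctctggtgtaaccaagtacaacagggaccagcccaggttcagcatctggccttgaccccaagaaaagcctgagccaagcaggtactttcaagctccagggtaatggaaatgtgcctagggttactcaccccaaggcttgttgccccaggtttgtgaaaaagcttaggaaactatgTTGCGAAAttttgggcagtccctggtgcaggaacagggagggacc

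C3ar1 encodes the receptor of the C3a fragment and spans chr6:122847140-122856157. It had 4 interactions with 201 contacts (174 to 231) in sham and 10 with 409 (370 to 451) at day 6, log2 -0.072 (-0.32 to 0.18), an interval that includes 0. With scaling by shared interactions it was 1.00 and by modelled contacts 1.68, both below the medians of all genes in those scalings. Foxj2, a forkhead factor whose gene lies next to it and shares 1 of its bins, took most of the contacts. The bin of C3ar1's start had 99 contacts in sham and 89 at day 6 with the bin chr6:122820001-122830000 at Foxj2, and 66 and 51 with the next bin. A Foxj2 bin called at day 6 alone, chr6:122810001-122820000, had 111 contacts, the highest of any interaction of the 9 genes. These neighbours lie 20 to 40 kb away, where contacts are expected to be many, and their counts were 1.79 to 2.62 times expected. Further partners differed between the lists. Apobec1, an RNA-editing deaminase, was joined in both lists from adjacent bins (24 contacts in sham and 15 at day 6), Pex5 in sham alone (12 contacts at 1560 kb), and Necap1 (40 contacts), the glucose transporter gene Slc2a3 (29), M6pr, a receptor that sorts lysosomal enzymes (21), and Mical3 (14, at 1710 kb) at day 6 alone.

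The bin of the C3ar1 start, chr6:122850001-122860000, had the highest read coverage of all bins of the 9 genes. The coverage deposited for each anchor, given relative to 1 constant per library, was 2.88 in sham, above 99.8% of all sham anchors, and 4.16 at day 6, above 99.7%. The promoter, chr6:122856158-122856407 on the minus strand, is printed for this reason.
C3ar1: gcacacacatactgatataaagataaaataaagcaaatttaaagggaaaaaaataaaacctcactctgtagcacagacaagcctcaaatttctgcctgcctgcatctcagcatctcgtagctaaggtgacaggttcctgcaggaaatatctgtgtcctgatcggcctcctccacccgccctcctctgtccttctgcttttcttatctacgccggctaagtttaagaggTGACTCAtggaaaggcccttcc
It held 1 AP-1 match, at position -22, and none of the other 4 motifs.

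C5ar1 and C5ar2 encode the receptors of the C5a fragment, of which C5ar1 signals through G proteins and C5ar2 does not couple to them in the usual way. They lie next to each other at chr7:16246743-16259540 and chr7:16234587-16244154. C5ar1 had 10 interactions with 496 contacts (453 to 542) in sham, more contacts than 98.3% of genes with contacts, and 12 with 419 (380 to 461) at day 6, log2 -1.33 (-1.53 to -1.15). With no flank C5ar1 had 7 interactions in sham and 7 at day 6, log2 -1.63. C5ar2 had 3 with 209 (182 to 239) in sham and 6 with 168 (144 to 195) at day 6, log2 -1.38 (-1.72 to -1.11). Both kept fewer contacts with lists of equal length (-1.14 and -2.03), with gene ends only (-1.63 and -1.38) and in the bin of the start of transcription alone (-1.65 and -1.50), and both were above 0 with scaling by modelled contacts (0.44 and 0.36).

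The locus had 10 interactions in sham and 14 at day 6, counting each once, and 6 were shared. Their counts show which contacts differed. The shortest, between the bins of C5ar2 and of the C5ar1 start 20 kb apart, had 99 contacts in sham and 49 at day 6, and the expected count differed as well, so that the ratio to expected was 2.33 and 2.17. The bin of the C5ar1 start with chr7:16220001-16230000 at Dhx34, an RNA helicase gene, had 76 and 43. With the Dhx34 bin 50 kb away, chr7:16200001-16210000, it had 71 in sham and 90 at day 6 (3.39 and 5.31 times expected). The 3 other shared interactions ran from the bin beside the C5ar1 start, which the gene reached only through its 1 kb flank. They joined Dhx34 (2 bins) and Meis3, with 39, 20 and 17 contacts in sham and 40, 21 and 19 at day 6. All sham interactions of the locus stayed within 90 kb. At day 6 the longest reached 240 kb, to Bicra, a subunit of a SWI/SNF chromatin remodeller (22, 36 and 17 contacts over 3 interactions), and others joined Zc3h4 (36 and 20 contacts) and the bin of Kptn and Napa (25). The 17 contacts with Bicra and the 36 with Zc3h4 were also those of the flank bin. The median distance was 55 kb in sham and 115 kb at day 6. The promoter of C5ar1, chr7:16259339-16259588 on the minus strand, is shown because its bin carried most of the locus' sham contacts (310 of 496), and it held none of the 5 motifs.
C5ar1: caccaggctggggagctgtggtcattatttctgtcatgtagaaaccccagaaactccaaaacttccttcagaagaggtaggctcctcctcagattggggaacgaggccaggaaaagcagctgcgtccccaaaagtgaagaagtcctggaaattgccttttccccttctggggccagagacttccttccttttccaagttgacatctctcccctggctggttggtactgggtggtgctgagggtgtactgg
Of the promoter windows of C5ar2, 1 held a pair of C/EBP matches, at -210 and -166, and the other a PU.1 core at -26.

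Itgam and Itgax lie in a row with Itgad on chromosome 7, at chr7:128062640-128118491 and chr7:128129526-128150657. CD11b, the product of Itgam, was 1 of the proteins used to sort the cells, so presence of the protein was a condition of the sort. Itgam had 9 interactions with 195 contacts (169 to 224) in sham and 23 with 534 (490 to 581) at day 6, the most interactions of the 9 genes in the day 6 list. Its log2 ratio of 0.35 (0.12 to 0.60) was the only one of the 9 above 0, was below the all-gene median and was -0.26 with lists of equal length. Itgax had 4 with 65 contacts (50.2 to 82.8) in sham and 3 with 77 (60.8 to 96.2) at day 6, log2 -0.80 (-1.35 to -0.35).

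Of the bins of Itgam, that of its start, chr7:128060001-128070000, had 1 interaction with 28 contacts (18.6 to 40.5) in sham and 8 with 178 (153 to 206) at day 6, log2 1.47 (0.99 to 2.20), and 0.84 with lists of equal length, where 2 day 6 interactions with 65 contacts were left. A bin in the gene body, chr7:128090001-128100000, also went from 1 interaction in sham to 5 at day 6. The bin of the start of Itgax had 2 with 40 in sham and 1 with 27 at day 6, log2 -1.45 (-2.43 to -0.93), and -0.73 with lists of equal length. With fewer than 3 interactions in each list the Itgax bin is outside the rule of size, and the measure by start bin was chosen after the data were seen. The interaction of the Itgam start in sham joined Trim72, with 28 contacts, and was kept at day 6 with 35. Partners of the Itgam start called at day 6 alone included Pycard, the gene of the inflammasome adaptor ASC (30 contacts), a bin 12.6 kb before the gene (33), the bin of Armc5 and Tgfb1i1 (21), Ctf1 and Ctf2 (15), and Asphd1 and Sez6l2 (12, at 1110 kb). Within the gene body the interactions of most contacts at day 6 joined Trim72 (40 contacts, 8.43 times expected) and the bin of 9130023H24Rik and Armc5 (39, 7.25 times). Pycard was also joined from the gene body in both lists, with 24 contacts in sham and 22 at day 6, from different bins. In sham the bin of Itgad and Cox6a2 was joined by 3 bins of Itgam with 24, 18 and 19 contacts, and at day 6 by 1 with 17. Itgam and Itgax were themselves joined at day 6 (21 contacts at 40 kb). A bin without a coding gene just before Itgam, chr7:128050001-128060000, was a partner of both genes in both lists: it had 35 contacts with Itgam in sham and 35 and 32 at day 6, and 23 and 27 with Itgax. The day 6 partner of Itgax with the most contacts was another bin without a coding gene, chr7:128220001-128230000 (29 contacts, 5.28 times expected), and its other sham partners of most contacts, also without a coding gene, had 17 and 15.

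The Itgam promoter (chr7:128062390-128062639, plus strand) is shown because its bin had the greatest difference in interactions among the start bins, and the Itgax promoter (chr7:128129300-128129549, plus strand) for comparison with its neighbour.
Itgam: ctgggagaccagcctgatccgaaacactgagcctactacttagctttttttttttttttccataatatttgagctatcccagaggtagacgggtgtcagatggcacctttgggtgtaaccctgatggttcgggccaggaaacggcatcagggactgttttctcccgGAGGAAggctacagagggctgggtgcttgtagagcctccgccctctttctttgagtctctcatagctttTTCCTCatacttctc
Itgax: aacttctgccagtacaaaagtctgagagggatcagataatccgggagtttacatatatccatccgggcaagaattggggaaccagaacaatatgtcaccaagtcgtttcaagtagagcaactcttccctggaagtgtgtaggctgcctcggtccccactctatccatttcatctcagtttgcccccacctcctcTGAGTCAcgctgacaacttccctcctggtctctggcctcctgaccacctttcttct
Itgam held 2 matches to the PU.1 core before the start, at -84 and -15, and 1 more after it that is not printed, whereas Itgax held 1 AP-1 match at -56 and no PU.1 core.

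**Figure D3:**
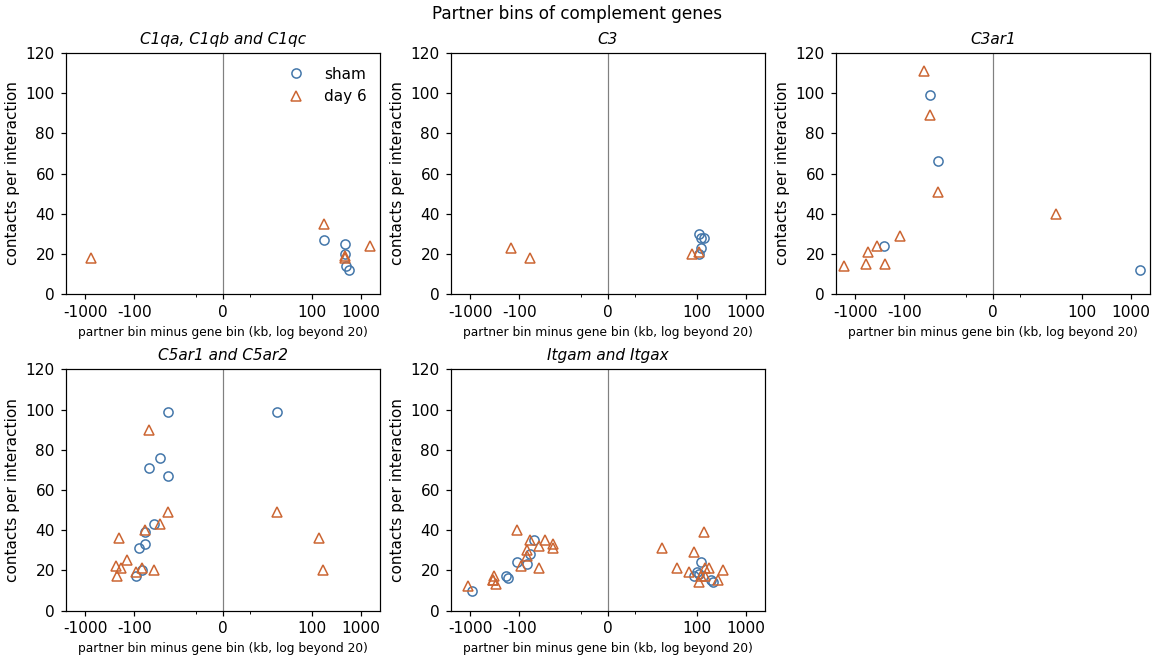
Contacts of each called interaction (vertical axis) against the distance of the partner bin from the bin of the gene (horizontal axis, kb, logarithmic beyond 20 kb, positive towards higher coordinates), for the 5 loci; an interaction between bins of 1 locus appears on both sides. C3 had partners on 1 side only in sham and on both at day 6, the sham partners of C5ar1 and C5ar2 lay within 90 kb, and the C1q genes were joined at about 480 kb in both libraries.

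Counted once each, the interactions of the 9 genes held 1184 contacts (1118 to 1253) in sham, and 1654 contacts (1575 to 1736) at day 6, log2 -0.61 (-0.72 to -0.51). The value was 0.48 with scaling by shared interactions and 1.16 by modelled contacts. Contacts of these interactions were 2.87 times the summed expected count in sham and 3.38 times at day 6. Of these interactions 14 were shared, which is 37.8% (exact binomial 95% interval 22.5 to 55.2%) of the sham interactions and 24.1% (13.9 to 37.2%) of those at day 6, against 24.6% and 10.9% of the whole lists. Of the 14, 7 had more contacts at day 6 in plain counts and 7 fewer, with a median log2 ratio of -0.019 (range -1.01 to 0.37), and the median over all shared interactions was 0.00. Where anchors could differ by 1 bin, 29 of the 37 sham interactions had a day 6 counterpart. The same count over all interactions was not made. Interactions over 500 kb numbered 3 of 37 in sham and 6 of 58 at day 6, against 9.43% and 21.7% of the lists. The sham share was close to that of its list, and no interval was computed for either count.

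The partners outside the 9 genes filled 25 bins in sham and 44 in the day 6 list, with 17 in common. Of these, 7 in sham (28.0%, 12.1 to 49.4%) and 13 at day 6 (29.5%, 16.8 to 45.2%) touched no coding gene. Among all anchors 24.1% and 23.4% did, which lies inside both intervals.

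Read coverage of the anchors, which the choice of genes did not use, differed between bins with a start of transcription and other bins, a split chosen after the values were seen. Of 22 bins on the 9 genes, 16 were anchors in sham and 17 at day 6. Relative coverage was higher at day 6 in 7 of the 8 bins with a start of transcription that were anchors in both lists (median log2 difference 0.25, range -0.38 to 0.64) and in 2 of the 8 other bins (median -0.19). Over all 16670 anchors of both lists 46.1% were higher and the median was -0.033. The spread of all anchors was wider at day 6, with a 95th percentile of 2.26 against 1.78 in sham. The C1qa and C1qc bin had 1.97 in sham and 3.08 at day 6, the C1qb bin 1.56 and 2.02, the C5ar1 start 1.84 and 2.14 and the Itgam start 1.56 and 1.72. The start of Itgax had 0.71 and 0.86, below the all-anchor medians of 1.05 and 0.92, and the start of C3 0.99 and 0.75. By rank among the anchors of its library the C1qa and C1qc bin stood at percentile 97.3 in sham and 98.5 at day 6, the C5ar1 start at 95.8 and 93.9, and the Itgam start at 89.6 and 88.0. The C1qb bin and the C5ar1 start had higher relative coverage at day 6 but lower read counts (1716 in sham and 1611 at day 6, and 2024 and 1708). Contacts of both genes were fewer by share of all called contacts. That is a different scale from relative coverage, so these directions cannot be compared. The coverage reads come from the same libraries as the contacts.

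**Figure D4:**
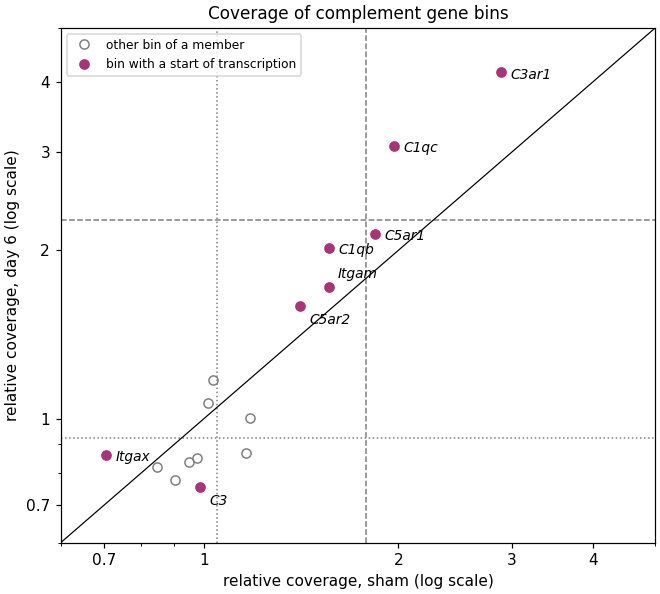
Relative coverage of the 16 bins of complement genes that were anchors in both libraries, sham against day 6 on log axes; filled points hold a start of transcription, named by gene, and the bin of C1qc also holds C1qa. The solid line marks equal values, dotted lines the medians of all anchors (1.05 and 0.92) and dashed lines their 95th percentiles; 7 of the 8 filled points lie above the solid line, C3 below it.

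Of 47 other listed genes of the pathway, 46 were in the annotation (all but C4a), and 21 of the 46 (45.7%) had an interaction in at least 1 list, against 13783 of all 21883 coding genes (63.0%). Of the 46, 14 had an interaction in sham and 20 at day 6, and 15 had at least 3 in 1 list. The rule of size put 5 of the 15 at more contacts, none at fewer and 10 in between, with a median log2 ratio of 0.30, against 39.1% with more and a median of 0.55 over all genes. With lists of equal length, where the number with at least 3 interactions was not counted, 1 had more and 2 fewer. Of 15 regulators, which limit complement on host cells, 6 had an interaction, 4 of these had at least 3 in 1 list (Sez6l2, Sez6, Cfi and Susd4) and 1 of the 4, Cfi, had more contacts. Cd55, Cd59a, Cr1l, Serping1 and Clu were among the 9 regulators with none in either list, and C4b had none. Cfb and Cfi, a protease of the alternative pathway and the protease that cleaves C3b, each had 1 interaction in sham, and 6 and 5 at day 6, with 26 against 122 and 15 against 95 contacts (log2 1.04 and 1.39). C8g, a chain of the terminal complex, had 14 and 138 (log2 1.98) in bins shared with Fbxw5 and Lcn12. C1rl, related to the C1r protease, had 6 interactions with 135 contacts and its neighbour C1s1, the C1s protease, 4 with 64 at day 6. No sham interaction was called for them, and their sham level below the caller's threshold is unknown. Neighbours share the bins of Cfb (Nelfe and Skiv2l) and Cfi (Gar1 and Pla2g12a) too.

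Of the genes between, Itgb2, which encodes CD18, the beta chain that pairs with both CD11b and CD11c, had 4 interactions with 268 contacts in sham and 11 with 474 at day 6, log2 -0.27 (-0.49 to -0.05). Lrp1, a receptor for many ligands in clearance, had the most contacts of the list, 505 and 643, log2 -0.74. Itgad, the neighbour of Itgax, had 130 and 140 (log2 -0.96), Calr, the chaperone calreticulin, 96 and 304 (0.55), Cfd, the factor D protease, 142 and 203 (-0.57), Masp1, a protease of the lectin pathway, 74 and 130 (-0.27), Sez6l2 107 and 284 (0.30) and Sez6 38 and 139 (0.73). C2 and Susd4 were also between. The beta chain Itgb2 and the alpha chains Itgam and Itgax all lay between the limits of the rule.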

How the data were processed

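H3K27ac HiChIP was done on sorted microglia, with 1 sham and 1 day 6 library. Per the submitters' processing notes, HiC-Pro 3.1.0 was used with mm10 (GRCm38). The name of the interaction caller was not given in the sources used here. Per the file headers, each list gives whole contact counts per pair of 10 kb bins and whole read counts (coverage) per anchor, as deposited and unscaled. Per the file headers, the bias of an anchor is a ratio, its coverage over 1 constant per library, called relative coverage here. The deposited expected contact count is a signal of the authors' caller, and the deposited probability of a contact is a fraction. The largest deposited q-value was just under 0.001. Total read pairs are not analysed here.

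Genes came from the RefSeq table of GRCm38.p6. Contacts per gene, log2 ratios, exact Poisson and binomial (Clopper-Pearson) 95% intervals and the rule of size were computed with Python 3.11.15, pandas 2.3.3 and scipy 1.17.1. The code for the gene ratios was run on simulated lists drawn from the sham interactions. Those lists had no calling threshold and did not differ in length, so the run does not bear on the calls here. Intervals cover counting error only, and PCR copies among the reads cannot be told from separate molecules. Starts of transcription came from the RefSeq promoter table, which had windows for 8 of the 9 genes. All 9 genes are named, with the 12 other complement genes of most contacts among those with at least 3 interactions and, for each gene and library, the genes in the 3 partner bins with the most contacts. C1s1, the other genes named and further partners were chosen after their values were seen. The genes and lists were chosen with earlier results of these data known. Alternatives changed the flank, gene ends, q-value limit, list length, scaling, prior, overlap and distance.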

Additional observations from a re-analysis of the deposited data

How the results depend on the processing

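The direction of most ratios depended on the scaling. When modelled contacts set the scale, C3, C5ar1 and C5ar2 turned to log2 ratios of 0.029, 0.44 and 0.36, the value of all members together was 1.16, and 3 members had more contacts and 0 fewer. Of the 15 other complement genes with at least 3 interactions 14 had more. Of all 9635 genes tested 8091 (84%) had more and 79 fewer. With scaling by shared interactions the members together were at 0.48, and 2 members had more and 1 fewer. Of the 15 other complement genes 10 had more, and of the 9635 genes 6386 (66.3%) had more and 186 fewer. With the q-value limit of 1e-06 there were 11 sham and 23 day 6 interactions of the members. Then 2 members had more (C3ar1 and Itgam) and 2 fewer (C5ar1 and C1qc). Of the other complement genes 3 had more, and of 4526 genes tested 2264 had more and 636 fewer. Itgax then had no sham interaction and C1qb none at day 6. With lists of equal length the members had 25 day 6 interactions, 1 other complement gene had more and 2 fewer, and 1874 of 6233 genes tested had more. How many other complement genes had at least 3 interactions in these shorter lists was not counted. With gene ends only there were 23 sham interactions of the members, 1 member (Itgam) had more and 1 other complement gene fewer, as was also the case for 1 with no flank and 1 with a flank of 5 kb. The cause of these differences was not tested.

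A prior of 1 or 20 contacts changed no count of members, other complement genes or all genes by over 1.5 times. With anchors allowed to differ by 1 bin, 29 sham interactions had a counterpart in place of 14. The mean log2 difference in relative coverage of member anchors was 0.015, and 0.059 over anchors in both lists only. No paired analysis was possible because each condition had 1 library. Sums of under 50 contacts, as for C1qb, have wide counting intervals.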
